A study of Mus musculus with 14 samples.

Results

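Neural stem cells of the OG2 mouse strain that had been passaged 13 times in culture were compared with the same kind of cells at passage 8. Each passage was represented by a single reference library, titled p13 NSC and p8 NSC, and these are 2 of the 14 RNA libraries of the series. The rest of the series is a drug experiment at passage 8, in which undifferentiated or differentiating cells received naloxone, an antagonist of opioid receptors, DAMGO, a peptide agonist of the mu opioid receptor, or a treatment that the labels call NC. The 3 undifferentiated libraries of that experiment (p8 NSC NC, p8 NSC Naloxone and p8 NSC Damgo) served here as a guide to how far libraries of 1 passage differ. All 5 libraries come from OG2 cells, a strain that carries a reporter driven by the Pou5f1 gene, and the labels name no treatment for the 2 reference libraries. The labels do not say which animals or cultures gave the cells, whether the passage 13 culture descended from the passage 8 one, or whether the reference and drug-experiment libraries were prepared together.

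A neural stem cell divides to renew itself and can give rise to neurons, astrocytes and oligodendrocytes. In culture such cells are kept dividing by growth factors such as EGF and FGF2 and are passaged, that is, dissociated and plated again, whenever they become dense. Long culture is known to favour the fastest growing cells of a mixed population and to shift the balance of stem, glial and region-specific genes.

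The p8 NSC library held 6171881 estimated read counts and the p13 NSC library 7378606, and the drug-experiment libraries held 4913473 to 5750942. Values are given as CPM, counts relative to a library total scaled between libraries by the TMM method, or as TPM, which also divides by transcript length and so allows levels of different genes to be compared. In these libraries 3 counts equalled 0.408 to 0.610 CPM, and floors and intervals cover counting error only. No condition was replicated, so each test sets 1 library against another with a spread borrowed from the 3 drug-experiment libraries (2 residual degrees of freedom). A p-value here compares libraries, whose spread may be technical, and does not speak for passage 13 cultures in general. In bulk RNA, fewer cells of a type and less RNA per cell cannot be told apart. The kit named in the labels does not keep strand, so reads of a gene and of an antisense partner cannot be told apart.

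The label of neural stem cells matched the markers in all 5 libraries. The summed TPM of 26 stem and progenitor genes lay between 13925 and 15126. Nes, the intermediate filament of neural progenitors, stood at 1692 CPM in p8 NSC and at 1951 CPM in p13 NSC. Dcx, a marker of migrating young neurons, stood at 20.4 and 18.5 CPM. Gfap, the intermediate filament of astrocytes, had 3 counts in each reference library. Of the lists of markers of other cells, 4 had low sums. In the first, 9 of 16 microglia and macrophage markers had 0 counts in all 5 libraries, and the summed TPM of that list was 3.81 to 9.24. The 12 endothelial markers summed to 7.35 to 14.5 TPM, with the defining genes Cldn5 and Cdh5 at 0 in all 5 libraries. Egfl7 and Kdr of that list were above the floor, at 14 to 20 and 9 to 15 counts. Choroid plexus markers summed to 0.79 to 1.89 TPM and ependymal ones to 9.24 to 11.9, with the ependymal gene Foxj1 at 24 to 45 counts. The other two lists were higher. Neural crest and Schwann markers summed to 64.6 to 86.2 TPM, most of it from Pmp22, and mesenchyme, pericyte and fibroblast markers to 24.5 to 42.6 TPM, with Prrx1 at 88 to 211 counts.

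Between p13 NSC and p8 NSC, 315 of 12687 tested genes were called (2.48%) at an adjusted p under 0.05 in edgeR's quasi-likelihood test with Benjamini-Hochberg adjustment. Of these, 159 (1.25%) were higher and 156 (1.23%) lower in p13 NSC. Most differences were small, with a median size of 0.54 on the log2 scale among called genes, and 81 called genes differed by at least 2-fold, 28 higher and 53 lower. Among the genes called, those with a known role in these cells included the matrix and surface genes Hmcn1, Cd93 and Sparcl1 on the higher side. Genes of oligodendrocyte precursors were called in both directions, Pdgfra, Gpr17 and Sox10 lower and Cspg4, Cspg5 and Olig1 higher. The number called turned on how the spread was estimated. DESeq2 called 34 genes, all of them among the 315, and a spread taken from a model of all 14 libraries called 3, which were Emp1, Gas6 and Pdgfra. limma on log2(TPM + 1) called 0, with 1070 genes at an unadjusted p under 0.05. Leaving out p8 NSC NC gave 530 calls and leaving out p8 NSC Damgo gave 569.

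The distance between the 2 reference libraries was set beside the distances among libraries of 1 passage. Over 4930 genes of at least 50 CPM, the root mean square log2 difference between p8 NSC and p13 NSC was 0.156. The drug-experiment libraries differed among themselves by 0.102 to 0.120, less than the references did. The distance from p8 NSC to the 3 drug-experiment libraries, all at passage 8, was 0.223 to 0.241, larger than the distance from p8 NSC to p13 NSC. From p13 NSC to the same 3 libraries it was 0.176 to 0.189. So the passage 13 library lay closer to the drug-experiment libraries than the passage 8 reference did. By this measure the 2 references were closer to each other than either was to the drug experiment, but by the median absolute log2 difference they were not. That median was 0.0982 between the references, 0.0939 to 0.103 from p13 NSC to the drug experiment and 0.130 to 0.138 from p8 NSC to it. Over 9612 genes of at least 10 CPM the order of the root mean square was the same, at 0.223 between the references, 0.278 to 0.284 from p8 NSC, 0.242 to 0.260 from p13 NSC, and 0.167 to 0.181 within the drug experiment.

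**Figure D1:**
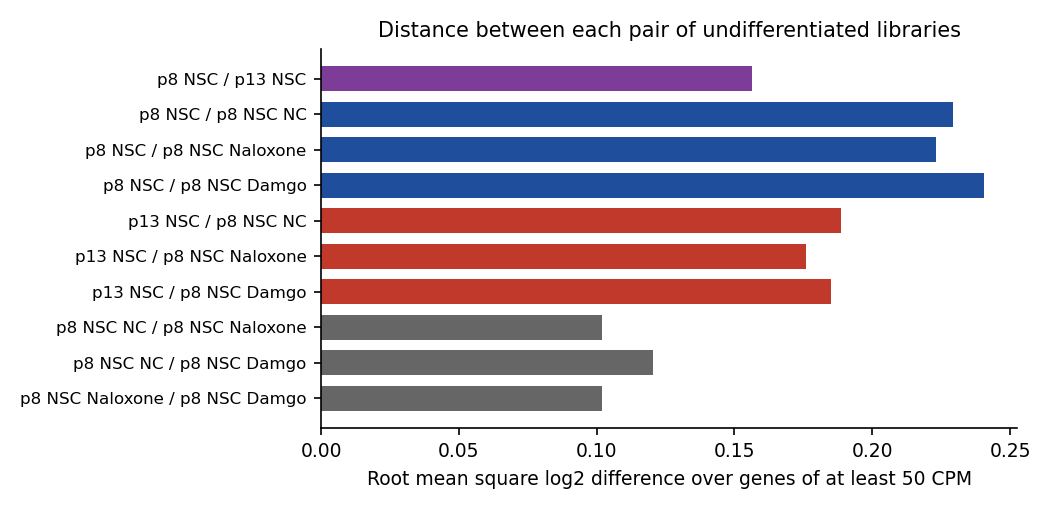
Root mean square log2 difference of CPM (horizontal axis) for each of the 10 pairs of undifferentiated libraries, over genes of at least 50 CPM. The purple bar is the reference pair (0.156), the blue bars pair p8 NSC with drug-experiment libraries (0.223 to 0.241), the red bars pair p13 NSC with them (0.176 to 0.189), and the grey bars are pairs within the drug experiment (0.102 to 0.120).

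The counts of calls against the drug experiment were likewise larger for p8 NSC than for p13 NSC. Both set 1 library against 3, so they cannot be ranked against the 315 calls between the references, which set 1 library against 1. Against the 3 drug-experiment libraries, p13 NSC had 789 called genes (6.22%), 364 higher (2.87%) and 425 lower (3.35%). The p8 NSC reference, of the same passage as those libraries, had 1995 called genes against them (15.7%). Of those, 965 (7.61%) were higher in the drug experiment and 1030 (8.12%) lower. These comparisons share libraries and are given side by side only. With all 4 passage 8 libraries fitted as 1 group, so that the distance of p8 NSC from the drug experiment counts as spread, 3 genes were called (0.0236%), Cd93 higher and Col12a1 and Tom1 lower. Without p8 NSC in that group the count was 790.

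The 3 passage 8 drug-experiment libraries did not lie on the passage 8 side for most of the genes that separated the references. Of the 315 called genes, all 3 libraries were nearer to p13 NSC in 177 (56.2%), all 3 were nearer to p8 NSC in 68 (21.6%), and they were divided in 70. By library, p8 NSC NC was nearer to p13 NSC in 201 of the 315, p8 NSC Naloxone in 211 and p8 NSC Damgo in 218. On a line from p8 NSC (0) to p13 NSC (1), the mean of the 3 libraries had a median position of 0.72. It lay beyond p8 NSC for 24 genes, from 0 to 0.5 for 86, from 0.5 to 1 for 110 and beyond p13 NSC for 95. Over all 12687 tested genes, called or not, the 3 libraries were all nearer to p13 NSC in 4962 (39.1%) and all nearer to p8 NSC in 2888 (22.8%).

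The lean toward passage 13 was found among genes higher and genes lower in p13 NSC, but not among the lower genes with the largest differences. Of 159 genes higher in p13 NSC, 88 had all 3 libraries nearer to p13 NSC and 34 nearer to p8 NSC. Of 156 lower genes the numbers were 89 and 34. Among the 81 genes called with at least 2-fold, they were 31 (38.3%) and 26 (32.1%), which divided into 14 and 6 of 28 higher genes and 17 and 20 of 53 lower genes. Among 216 called genes of at least 20 CPM in both references they were 138 (63.9%) and 40 (18.5%). Among called genes p8 NSC was outside the range of the other 4 libraries in 268 of 315, and p13 NSC in 183. The call itself picks genes in which the 2 references differ, which tends to put both at the ends of the range. Of 11154 genes of at least 5 CPM in 1 of the 5 libraries, called or not, p8 NSC lay outside the other 4 for 6202 and p13 NSC for 4046. By at least 2-fold, p8 NSC lay outside for 30 and p13 NSC for 21, of which 6 were above and 15 below.

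**Figure D2:**
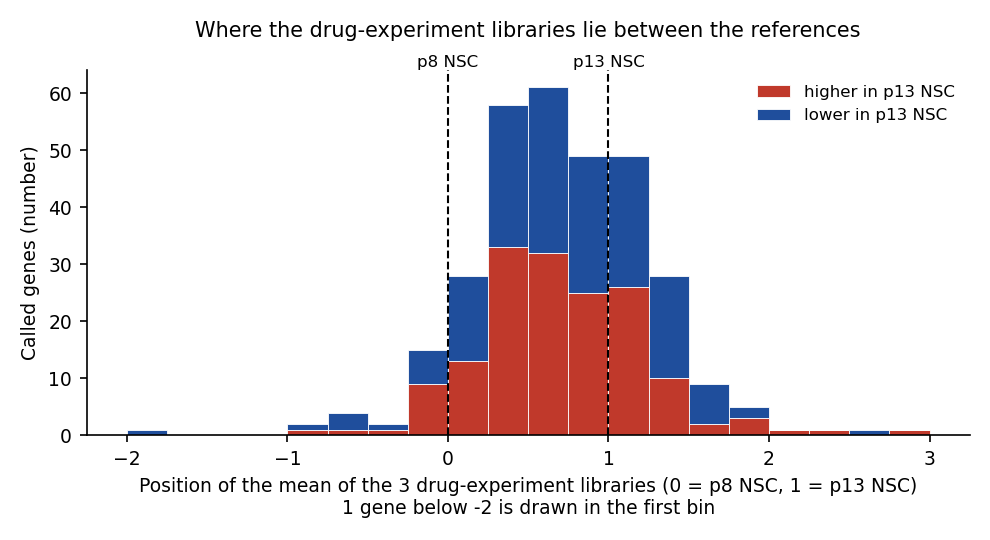
Number of called genes (vertical axis) by the position of the mean of the 3 drug-experiment libraries on a line from p8 NSC (0) to p13 NSC (1), with genes higher in p13 NSC in red and lower ones in blue. Most genes lie right of 0.5, and 95 of 315 lie beyond p13 NSC.

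The genes in which p13 NSC stood apart from all 4 passage 8 libraries came first. Cd93, which encodes a transmembrane lectin-like receptor (chromosome 2, 148436640 to 148443563, minus strand, GRCm38), was at 58.5 CPM in p8 NSC and 138 CPM in p13 NSC. It was at 50.4, 53.9 and 54.0 CPM in the NC, Naloxone and Damgo libraries. The 4 passage 8 libraries thus lay together and the passage 13 library was 2.36 times the highest of them, a log2 difference from p8 NSC of 1.24 ± 0.10 (SE, adjusted p = 7.4e-10). Hmcn1, the gene of the basement membrane protein hemicentin (chromosome 1, 150562524 to 150993435, minus strand), was at 102 CPM in p8 NSC, 145, 140 and 148 CPM in the drug-experiment libraries, and 233 CPM in p13 NSC. All 4 passage 8 libraries lay below p13 NSC, and the difference from p8 NSC was 1.19 ± 0.08 on the log2 scale (adjusted p = 3.4e-11). Sparcl1, a secreted glycoprotein of glia, was at 385 CPM in p8 NSC, 528 to 546 CPM in the drug experiment and 648 CPM in p13 NSC. Here the drug-experiment libraries were nearer to p13 NSC, at a log2 difference between the references of 0.75 ± 0.07 (adjusted p = 4.3e-09).

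Car3, a carbonic anhydrase gene chosen for mention after its values were seen, was at 64.6 CPM in p8 NSC, 71.2 to 77.4 CPM in the drug experiment and 124 CPM in p13 NSC. Its log2 difference between the references was 0.94 ± 0.10 (adjusted p = 3.2e-07), and all 4 passage 8 libraries lay together. Cd93, Hmcn1, Car3 and Sparcl1 were also called between the references by DESeq2.

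Genes at lower levels with p13 NSC above all 4 passage 8 libraries included a pair of neuronal ones. Neurod1, a transcription factor of neuronal differentiation, was at 3.92 CPM in p8 NSC (24 counts), 3.66, 3.99 and 3.0 CPM in the drug experiment and 9.66 CPM in p13 NSC (71 counts). The passage 8 values did not reach p13 NSC, and the log2 difference was 1.29 ± 0.36 with an adjusted p of 0.048. Syt1, the calcium sensor of synaptic vesicles, was at 13.6 CPM in p8 NSC, 19.9 to 21.5 in the drug experiment and 28.1 CPM in p13 NSC (log2 difference 1.05 ± 0.18, adjusted p = 0.00064), so that the drug experiment was nearer to p13 NSC. Ifi27, a gene known to respond to interferon, was at 1.14 CPM in p8 NSC (7 counts), 2.44, 3.12 and 2.65 CPM in the drug experiment and 7.21 CPM in p13 NSC (53 counts). By TPM its rise was smaller, at 7.75 in p8 NSC, 6.97 to 7.9 in the drug experiment and 20.28 in p13 NSC. Ifi27 was the only one of 16 tested interferon and MHC class I genes that was called. Other genes with p13 NSC above the 4 passage 8 libraries were the ciliary gene Hydin (10.1 CPM in p8 NSC, 19.99 in p13 NSC), the cadherin gene Dchs2 (4.91 and 13.3), the ubiquitin ligase gene March1 (6.05 and 13.6) and the collagen gene Col28a1 (3.43 and 10.6). Piezo2, a mechanosensitive channel gene, was at 9.16 CPM in p8 NSC, 14.2 to 15.6 CPM in the drug experiment and 18.2 CPM in p13 NSC, with all 3 drug-experiment libraries nearer to p13 NSC. Pcdhb10, at 5.56 and 12.1 CPM, belongs to a cluster of similar protocadherin genes, and its share of reads depends on how the authors' software divided them. Adamts4 was at 7.19 and 18.1 CPM. With the counts of overlapping genes summed, its log2 difference of 1.33 became -0.059, so its rise is uncertain.

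On the lower side, genes of the oligodendrocyte lineage stood out by name. Pdgfra, the PDGF receptor of oligodendrocyte precursors (chromosome 5, 75152292 to 75198215, plus strand), was at 36.1 CPM in p8 NSC and 26.0, 21.7 and 26.7 CPM in the drug experiment. It was at 15.4 CPM in p13 NSC, below all 4 passage 8 libraries, with a log2 difference from p8 NSC of -1.23 ± 0.17 (adjusted p = 2.2e-05). Gpr17, a receptor of differentiating oligodendrocyte precursors, was at 8.01 CPM in p8 NSC (49 counts), 5.69, 5.89 and 8.30 CPM in the drug experiment and 1.22 CPM in p13 NSC (9 counts). The passage 8 libraries lay together, the nearest of them 4.65 times p13 NSC (log2 difference between the references -2.69 ± 0.47, adjusted p = 0.00081). Sox10, the transcription factor of oligodendrocyte lineage and neural crest, had 19 counts in p8 NSC, 11, 12 and 12 in the drug experiment and 0 in p13 NSC. With 3 counts as the floor, it was at least 7.61-fold lower in p13 NSC than in p8 NSC (adjusted p = 0.0038).

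Other genes of the same lineage did not share that direction. Of 10 tested oligodendrocyte precursor genes, 3 were called lower (Pdgfra, Gpr17, Sox10) and 3 higher (Cspg4, Cspg5, Olig1). Their median log2 difference was 0.12, beside -0.01 for all genes tested, of which 1.23% were called lower and 1.25% higher. Cspg4, the NG2 proteoglycan of precursors and pericytes, was at 70.3 CPM in p8 NSC, 134 CPM in p13 NSC and 170, 197 and 196 CPM in the drug experiment. The log2 difference between the references was 0.93 ± 0.11 (adjusted p = 6.6e-07), and the drug-experiment libraries lay beyond p13 NSC. Cspg5, the neuroglycan C gene, was at 203 CPM in p8 NSC, 280 CPM in p13 NSC and 260 to 282 CPM in the drug experiment. Of 8 tested myelin and mature oligodendrocyte genes, 2 were called, both lower. Tspan2, a tetraspanin of oligodendrocytes, was at 11.0 CPM in p8 NSC, 9.89 to 12 CPM in the drug experiment and 3.81 CPM in p13 NSC. Ugt8a, which makes the myelin lipid galactosylceramide, was at 13.2 CPM in p8 NSC and 5.85 CPM in p13 NSC, with the drug experiment at 5.12 to 6.30. Neural crest markers other than Sox10, such as Foxd3, Gfra3 and Tfap2b, were at 0 in all 5 libraries.

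The matrix gene Col12a1 and the ligand gene Gas6 were named after their values were seen, because they were called under other models. Col12a1, a collagen associated with fibrils (chromosome 9, 79598991 to 79718831, minus strand), was at 37.1 CPM in p8 NSC, 31.7, 36.1 and 40.8 CPM in the drug experiment and 12.2 CPM in p13 NSC. The nearest passage 8 library was 2.59 times p13 NSC. Gas6, the ligand of the TAM receptors, was at 49.5 CPM in p8 NSC, 38.3 to 44.3 CPM in the drug experiment and 19.4 CPM in p13 NSC (log2 difference between the references -1.35 ± 0.15, adjusted p = 6.6e-07). In both genes the 4 passage 8 libraries lay together, above p13 NSC.

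Egr1, an immediate early transcription factor, was at 328 CPM in p8 NSC, 370, 419 and 384 CPM in the drug experiment and 216 CPM in p13 NSC. The passage 13 library was below all the others, with a log2 difference from p8 NSC of -0.60 ± 0.08 (adjusted p = 1.8e-05). Of 22 tested immediate early genes only Egr1 was called lower and only Jund higher, and the median of the list was 0.06. Apoe, the main apolipoprotein of glia, was at 68.7 CPM in p8 NSC, 88.2 to 99.6 CPM in the drug experiment and 46.0 CPM in p13 NSC (log2 difference -0.58 ± 0.12, adjusted p = 0.0045). Other falls with p13 NSC below all 4 passage 8 libraries were those of the ceramide synthase gene Cers4 (6.38 CPM in p8 NSC, 2.04 in p13 NSC), the transmembrane protein gene Tmem132b (6.21 and 1.22), the imprinted adaptor gene Grb10 (6.87 and 1.90) and the GTPase gene Rab26 (7.68 and 1.63). By TPM the falls were smaller for Cers4 (2.78 in p8 NSC, 1.38 in p13 NSC), Grb10 (2.62 and 1.76) and Rab26 (10.28 and 4.2). With overlapping genes summed, Rab26 was no longer called. Duxbl3, at 5.89 and 0.95 CPM, belongs to a family of near-identical copies and is uncertain.

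Tom1, a gene of endosomal sorting (chromosome 8, 75033705 to 75070121), had the largest fitted fall. It had 154 counts in p8 NSC, 166, 218 and 120 in the drug experiment and 0 in p13 NSC, which makes it at least 61.7-fold lower than in p8 NSC by the same floor. It was also at 0 in 2 differentiating DAMGO libraries, at day 2 and day 4, and at 91 to 946 counts in the other libraries of the series. A gene at 0 in 3 of 14 libraries and abundant in the rest can be a failed estimate of the authors' software, which was not tested, and its fall is uncertain.

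**Figure D3:**
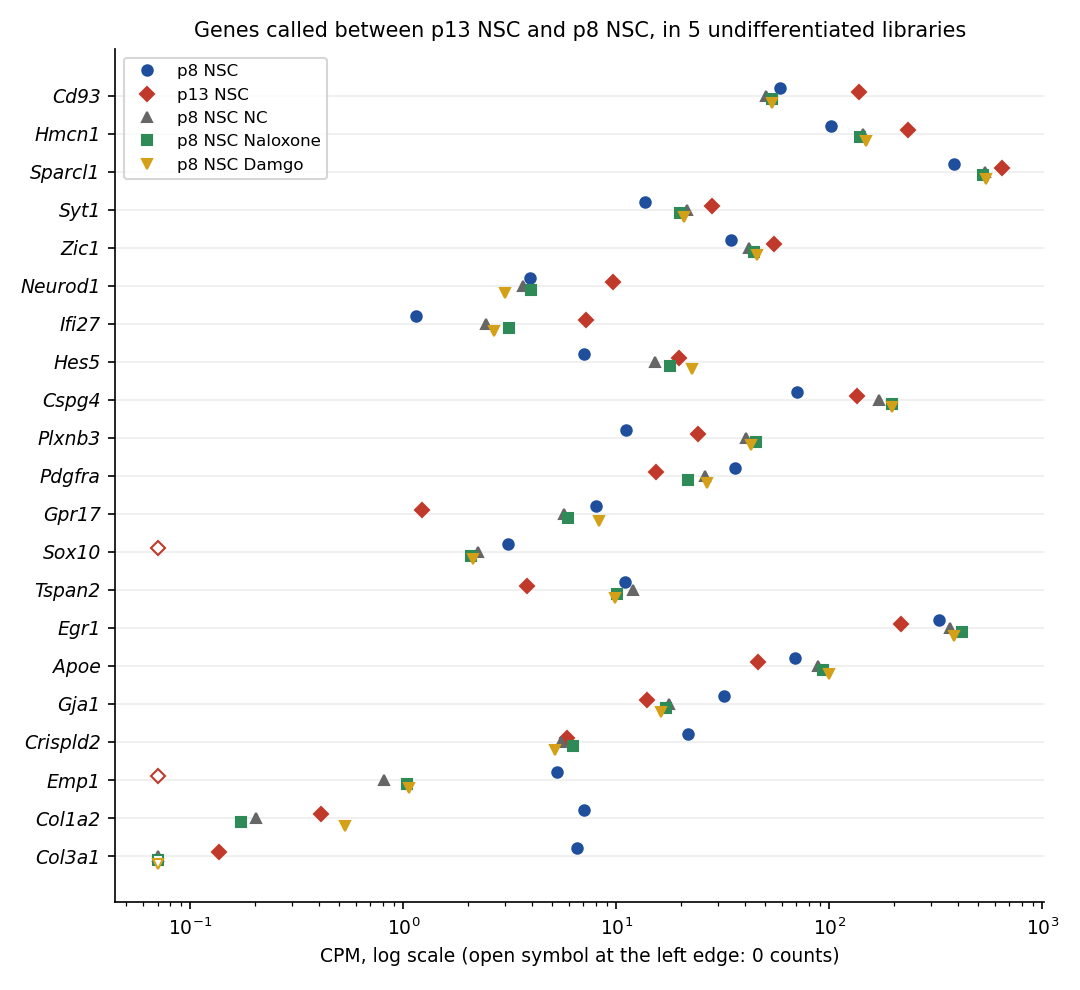
CPM on a log axis (horizontal) for 21 called genes (vertical axis) in p8 NSC (blue circles), p13 NSC (red diamonds) and the NC, Naloxone and Damgo libraries of the drug experiment (triangles and squares), with libraries of 0 counts drawn open at the left edge. For Cd93, Neurod1, Gpr17, Sox10 and Tspan2 the 4 passage 8 libraries lie together, and for Hes5, Cspg4, Plxnb3, Crispld2, Col1a2 and Col3a1 the drug-experiment libraries lie with or beyond p13 NSC.

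In a second pattern p8 NSC lay outside the other 4 libraries and the drug experiment was nearer to p13 NSC. Hes5, a Notch target that keeps progenitors undifferentiated (chromosome 4, 154960923 to 154962371, plus strand), was at 7.03 CPM in p8 NSC, 19.7 CPM in p13 NSC and 15.2, 17.9 and 22.6 CPM in the drug experiment. The p8 NSC value was below all the others, with a log2 difference between the references of 1.49 ± 0.26 (adjusted p = 0.00066). Plxnb3, a semaphorin receptor gene, was at 11.1 CPM in p8 NSC, 24.2 CPM in p13 NSC and 40.4 to 45.1 CPM in the drug experiment. It was called between p13 NSC and the drug experiment too (adjusted p = 2.2e-05), so p13 NSC lay between the passage 8 libraries. Mettl27 and the antisense transcript Prss23os were also lowest in p8 NSC, at 3.43 and 1.64 CPM, with 9.25 and 6.39 CPM in p13 NSC. Their drug-experiment values lay around those of p13 NSC, at 7.32 to 10.4 CPM for Mettl27 and 6.24 to 7.11 CPM for Prss23os. Reads of Prss23os and of Prss23 on the other strand cannot be told apart.

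The largest falls of this second kind were those of fibroblast genes that were near 0 outside p8 NSC. Col3a1, a fibrillar collagen, had 40 counts in p8 NSC, 1 in p13 NSC and 0 in each drug-experiment library. The CPM ratio of p8 NSC to p13 NSC was 48.1, with a 95% counting interval of 8.15 to 1946. Col1a2, another fibrillar collagen, had 43 counts in p8 NSC, 3 in p13 NSC and 1, 1 and 3 in the drug experiment, a ratio of 17.2 (5.52 to 86.8). By TPM both falls were smaller, with Col3a1 at 5.71 in p8 NSC and 0.62 in p13 NSC and Col1a2 at 2.53 and 0.28. Emp1, an epithelial membrane protein gene, had 32 counts in p8 NSC, 4, 6 and 6 in the drug experiment and 0 in p13 NSC, at least 12.8-fold lower. Of 7 tested mesenchyme, pericyte and fibroblast markers 3 were called, all lower (Col3a1, Col1a2 and Thy1), where 1.23% of all tested genes were. Thy1 was not of this second kind, at 13.7 CPM in p8 NSC, 11.6 to 12.7 CPM in the drug experiment and 6.53 CPM in p13 NSC. The median of the list was -1.07. The summed TPM of its 16 markers was 42.6 in p8 NSC, 24.5 in p13 NSC and 27.0 to 39.4 in the drug experiment. Col1a1 had 26 counts in p8 NSC, 6 in p13 NSC and 3 to 7 in the drug experiment. Prrx1, the most abundant gene of the list by counts, had 184 in p8 NSC and 211 in p13 NSC. Lum, Dcn, Pdgfrb and Twist1 had 3 counts or fewer in both references, and Postn was at 0 in all 5 libraries. The part of such cells in the other differences of p8 NSC was not tested.

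Other genes high in p8 NSC alone had moderate counts. Crispld2, a secreted protein gene, was at 21.7 CPM in p8 NSC, 5.85 CPM in p13 NSC and 5.12 to 6.24 CPM in the drug experiment (log2 difference -1.89 ± 0.26, adjusted p = 2.0e-05). Gja1, the gap junction gene of astrocytes and progenitors, was at 32.0 CPM in p8 NSC, 13.9 CPM in p13 NSC and 16.2 to 17.7 CPM in the drug experiment. Apobec1, a cytidine deaminase gene, was at 14.1, 4.62 and 4.95 to 7.32 CPM in the same order. The glutamate receptor gene Gria1 was at 8.18, 1.90 and 0.883 to 2.44 CPM. In each of these p8 NSC was at least 1.5 times every other library, so an effect of passage and a p8 NSC library that stands apart cannot be told apart.

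By function, neural stem and progenitor genes were called only upward, at 5 of 25 tested, with a median log2 difference of 0.18. The shares over all tested genes, for this and the other lists, were 1.25% called higher and 1.23% called lower. The 5 were Hes5, Egfr, Sox2, Olig1 and Nes, and except for Hes5 their differences were between 0.21 and 0.28. Egfr, the receptor through which EGF keeps these cells dividing, was at 505 CPM in p8 NSC, 614 CPM in p13 NSC and 607 to 635 CPM in the drug experiment. Sox2, a transcription factor that maintains stem cells, was at 299 CPM in p8 NSC, 363 CPM in p13 NSC and 319 to 352 CPM in the drug experiment. Olig2 (0.17 ± 0.06) and Pax6 (-0.05 ± 0.15) did not pass, at adjusted p of 0.16 and 0.93. Nes and Sox2 were no longer called without the Naloxone library, at adjusted p of 0.057 and 0.063.

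The genes of cell division that were called were all lower in p13 NSC than in p8 NSC. Of all tested genes, 1.23% were called lower. Of 25 S phase and replication genes 3 were called, all lower, and 23 of the 25 differences were below 0, with a median of -0.19. The 3 make nucleotides: Rrm2, of ribonucleotide reductase, fell from 406 to 314 CPM between p8 NSC and p13 NSC, Tyms, thymidylate synthase, from 104 to 80.9 CPM, and Tk1, thymidine kinase, from 112 to 87.8 CPM. In the drug experiment these genes were lower still, at 277 to 290, 66.4 to 73.0 and 82.5 to 85.0 CPM. Of 25 G2 and M phase genes only Kif23, a kinesin of cytokinesis, was called (lower), but all 25 differences were below 0, with a median of -0.19. The summed TPM of the S phase list was 4194 in p8 NSC, 3684 in p13 NSC and 3299 to 3467 in the drug experiment. That of the G2 and M phase list was 4532, 4073 and 4047 to 4189. By these sums p8 NSC was the highest of the 5 libraries. Mki67, a marker of dividing cells, was at 1438 and 1330 CPM (adjusted p = 0.36). Tk1 and Tyms were no longer called without the Naloxone library, at adjusted p of 0.088 and 0.076.

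Genes tied to arrest and ageing in culture gave single calls or none per list, where 2.48% of all tested genes were called. Of 15 tested cell cycle inhibitor and senescence genes, only Hmga1, a chromatin protein of proliferating cells, was called, at 119 CPM in p8 NSC and 84.0 CPM in p13 NSC. Cdkn1a, which encodes the inhibitor p21, was at 232 and 237 CPM. Cdkn2a, the Ink4a and Arf locus whose rise is the usual mark of culture senescence, was at 14.9 CPM in p8 NSC, 18.8 CPM in p13 NSC and 16.3 to 19.3 CPM in the drug experiment (0.33 ± 0.20, adjusted p = 0.47). Cdkn2b was at 7.03 and 5.03 CPM. Trp53 was at 102 and 108 CPM, and 1 of 22 of its targets was called, Tnfrsf10b, lower. None of 23 tested telomere and DNA repair genes was called by edgeR, with a median of -0.13. Tert, the telomerase gene, had 4 counts in p8 NSC and 1 in p13 NSC, too few to be tested.

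Genes of developmental time and imprinting gave few calls, most of them falls at low or moderate levels. Of 12 tested genes of fetal growth and temporal identity, 2 were called lower and 1 higher, with a median log2 difference of -0.08. Of 15 tested imprinted genes 2 were called lower, with a median of -0.13. Over all tested genes 1.23% were called lower and 1.25% higher. Igf2bp2, an RNA-binding protein of young progenitors, was at 46.1 CPM in p8 NSC, 32.4 CPM in p13 NSC and 35.0 to 37.4 CPM in the drug experiment (adjusted p = 0.033). Hmga2, which declines with age in neural stem cells, was at 26.5 and 25.3 CPM and did not pass. Lin28b and Igf2bp1 had 0 counts in both references. H19, an imprinted noncoding RNA, had 31 counts in p8 NSC, 4 in p13 NSC and 4, 8 and 12 in the drug experiment (log2 difference -3.17 ± 0.73, adjusted p = 0.011). Its neighbour Igf2 had 14 and 6 counts and did not pass. Sox4, listed here and among neuronal genes, was at 298 CPM in p8 NSC, 446 CPM in p13 NSC and 404 to 473 CPM in the drug experiment, a log2 difference of 0.58 ± 0.08 (adjusted p = 2.2e-05).

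Among genes of regional identity, 2 of 11 tested forebrain patterning genes were called, beside 2.48% of all genes tested. Zic1, a transcription factor of dorsal and medial forebrain, was at 34.5 CPM in p8 NSC, 42.1 to 45.7 CPM in the drug experiment and 54.7 CPM in p13 NSC. Gsx1, of the ventral forebrain, was at 12.8 CPM in p8 NSC, 9.19 to 10.4 CPM in the drug experiment and 5.98 CPM in p13 NSC. For both genes the drug experiment lay between the references. Of 32 hindbrain and spinal cord genes, 21 were at 0 in all 5 libraries and 3 could be tested, none of them called.

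The Wnt and Notch lists held calls, set here beside the 1.25% of all tested genes called higher in p13 NSC. In the Wnt list 3 of 24 were called, all higher: the receptors Fzd7 (7.36 CPM in p8 NSC, 14.3 in p13 NSC) and Fzd9 (23.7 and 35.2) and the feedback inhibitor Nkd1 (35.2 and 55.1). In the Notch list Hes5 and the ligand gene Dll1 (38.8 and 54.3 CPM) were called of 16. None of 17 BMP and TGF-beta genes and none of 11 Hedgehog genes was called by edgeR. With the trend on GC content and length removed, Fzd7 and Fzd9 were no longer called, at adjusted p of 0.055 and 0.083.

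Among 33 matrix and integrin genes 5 were called higher (Lamb1, Lamc1, Lama5, Bcan and Itga4) and 3 lower (Col18a1, Col1a2 and Col3a1), with a median of 0.07. Lamb1, a laminin chain, was at 42.3 CPM in p8 NSC, 44.0 to 54.8 CPM in the drug experiment and 62.7 CPM in p13 NSC. Col18a1, a basement membrane collagen, was at 75.7 CPM in p8 NSC, 48.7 CPM in p13 NSC and 37.4 to 40.1 CPM in the drug experiment. Bcan, a proteoglycan of brain matrix, was at 523 CPM in p8 NSC, 682 CPM in p13 NSC and 711 to 769 CPM in the drug experiment. Among adhesion and synapse genes, those called included Robo1, Epha5, Gria4 and Gabra2 on the higher side and Plxna2 and Gria1 on the lower. Robo1, a guidance receptor, went from 24.2 CPM in p8 NSC to 44.5 CPM in p13 NSC, with 29.9 to 38.5 CPM in the drug experiment.

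Astrocyte genes had no common direction, with 2 of 20 called higher, Sparcl1 among them, and 3 lower (Apoe, Gja1 and Slc4a4), at a median of -0.12. Slc4a4, a bicarbonate cotransporter gene, was at 170 CPM in p8 NSC, 133 CPM in p13 NSC and 142 to 157 CPM in the drug experiment.

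Glycolysis and hypoxia genes set the references together against the drug experiment. Between the references 1 of 27 was called, Pfkp, a phosphofructokinase gene, which was lower in p13 NSC (48.9 CPM in p8 NSC, 28.4 in p13 NSC, 45.1 to 49.1 in the drug experiment), and the median was -0.02. Against the drug experiment, 23 of 27 were called lower in p13 NSC, with a median of -0.71, beside 3.35% of all tested genes. In the drug experiment 22 of 27 were called higher than in p8 NSC, with a median of 0.72, beside 7.61% of all tested genes. Both comparisons use the same 3 libraries. In housekeeping lists no gene was called between the references by edgeR, where 2.48% of all tested genes were called. The lists held 26 nuclear oxidative phosphorylation genes (median -0.11), 27 ribosomal protein genes (-0.05) and 23 cholesterol synthesis genes (-0.04). Over all 12687 tested genes, 1866 had an unadjusted p under 0.05 in the same test.

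Stress, clock and autophagy lists held 1 or 2 calls each. Of 12 heat shock genes 2 were called lower, Hspd1, the mitochondrial chaperonin, at 946 CPM in p8 NSC, 747 CPM in p13 NSC and 713 to 754 CPM in the drug experiment, and the cytosolic chaperone Hsp90aa1, which lost its call without the Naloxone library (adjusted p = 0.13). Both antioxidant genes called of 17, Gsta4 (7.68 and 2.58 CPM) and Srxn1 (21.7 and 13.1 CPM), were lower in p13 NSC, with the drug experiment near p13 NSC. Per1, of the circadian clock, was at 13.9 CPM in p8 NSC, 24.6 CPM in p13 NSC and 40.4 to 43.3 CPM in the drug experiment. Map1lc3a, of the autophagosome membrane, was at 17 CPM in p8 NSC, 28.7 CPM in p13 NSC and 19.6 to 24.2 CPM in the drug experiment. Of the genes named by the rule, 8 were also called by DESeq2, beside Car3, Col12a1, Gas6, Bcan and Cspg5 among the other genes described: Cd93, Hmcn1, Sparcl1, Sox4 and Cspg4 higher, and Egr1, Hspd1 and Tom1 lower.

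**Figure D4:**
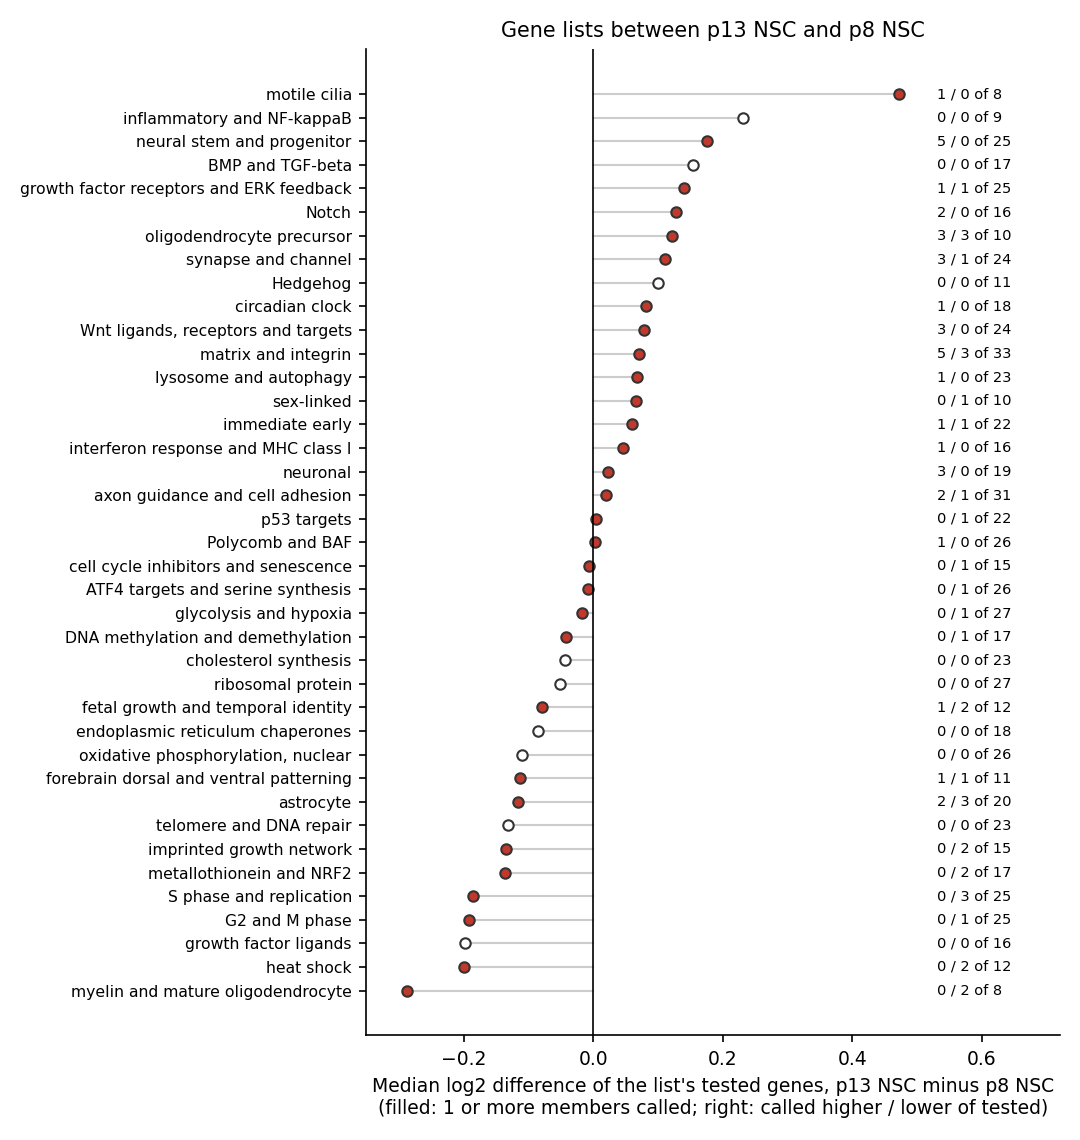
Median log2 difference between p13 NSC and p8 NSC (horizontal axis) of each gene list with at least 8 tested genes (vertical axis), filled where at least 1 member was called, with the members called higher and lower at the right. The neural stem and progenitor list has a median of 0.18 with 5 members called higher, and the S phase and G2 and M phase lists have medians of -0.19 with 3 and 1 called lower.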

How the data were processed

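RNA was sequenced from TruSeq libraries, per the labels' protocols. The submitters' processing notes name Bowtie, RSEM and mm10 without versions, and how they were run is not given in the sources used here. In the authors' deposited files each of 29713 genes has an expected count (an RSEM estimate, rounded here to whole numbers) and a TPM, per the file headers. Of these identifiers 29202 were found in GENCODE M21, of the same build (GRCm38), which gave positions and symbols. Mitochondrial genes were not analysed here.

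The 5 undifferentiated libraries were fitted with edgeR 4.0.16 in R 4.3.3 (TMM scaling, its filter on low counts, quasi-likelihood tests, Benjamini-Hochberg adjustment over 12687 genes), with a term for each reference library and 1 for the drug-experiment libraries. The code was tested on data of known answer. Distances and positions used log2(CPM + 0.5). The members and gene lists were chosen with earlier results of these data known. Genes were named by a rule: the 12 largest rises and 12 largest falls with p13 NSC outside all 4 passage 8 libraries, 6 each way where the drug experiment was nearer to p13 NSC, up to 4 called members per list, all with adjusted p under 0.05 and the first 2 kinds with at least 5 CPM, and 32 genes always looked up. Predicted genes were counted and not named, and a few other genes are not reported here. Alternatives were DESeq2 1.42.0 and its size factors, limma 3.58.1 on log2(TPM + 1), no filter, each library left out, a spread from 14 libraries, a minimum fold of 2, and a GC content and length trend removed with mgcv 1.9.3. Summing genes that share at least 50 exon bases, and a minimum of 20 CPM for the side, were alternatives chosen after seeing the data.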

Additional observations from a re-analysis of the deposited data

How the results depend on the processing

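No paired analysis was possible because each condition has 1 library. The number of calls changed with the model, and the cause was not tested. The direction of a named gene seldom changed, but it rests on the same 2 reference libraries in every setting and so is no replication. For p13 NSC against p8 NSC, 315 calls became 34 with DESeq2, 0 with limma on log2(TPM + 1) (1070 at an unadjusted p under 0.05), 3 with the spread of 14 libraries, 81 with a minimum of 2-fold, and 279 to 569 with 1 drug-experiment library left out. Against the drug experiment, 789 calls for p13 NSC became 113, 25 and 35 with DESeq2, limma and 14 libraries, and the 1995 for p8 NSC became 372, 49 and 60. Against all 4 passage 8 libraries, 3 calls became 10 without a filter, 9 with DESeq2 and 1 with limma, and 2 to 790 with a library left out, 790 being the value without p8 NSC. The share of called genes with all 3 libraries nearer to p13 NSC, 56.2%, was 38.3% with at least 2-fold, 63.9% with at least 20 CPM (chosen after seeing the data), 61.8% of the DESeq2 calls and 33.3% of the 3 calls with the spread of 14 libraries. The 21 genes with p13 NSC outside the passage 8 range by 2-fold became 81 at 1.5-fold. Of 80 named genes called, 79 kept call and direction with DESeq2 size factors, 79 without a filter, 76 with the GC and length trend removed, 70 without the Naloxone library, 8 of 61 with an adjusted p from DESeq2, 2 with the 14-library spread and 0 with limma. Signs changed for Adamts4 (-0.059 with overlapping genes summed) and, among genes not called, with limma for Dnmt3b (0.21), Ogfr (-0.065), Pax6 (0.30) and Tet3 (0.021, and 0.0060 without a filter), for Xist (-0.033 with the trend removed) and for Oprl1, whose -0.0027 became 0.0018 with DESeq2 size factors, 0.0096 without a filter, 0.032 with the trend removed and 0.0015 to 0.0018 with a library left out.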

Other observations

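No chromosome as a whole stood apart between the references. The median log2 difference of a chromosome's genes, for the autosomes and X, lay between -0.03 and 0.03 in p13 NSC against p8 NSC, where a gain of 1 copy in every cell would give 0.58. In the drug-experiment libraries the same medians lay between -0.04 and 0.06. A gain in a small share of the cells would not be seen at this scale.

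Xist, the noncoding RNA of the inactive X of female cells, and Y-linked genes were both abundant in every library. Xist was at 1784 CPM in p8 NSC, 1813 CPM in p13 NSC and 2034 to 2167 CPM in the drug experiment. The Y-linked gene Ddx3y had 174 counts in p8 NSC and 246 in p13 NSC, and Kdm5d had 154 and 239. The 7 tested genes of the Y chromosome had a median log2 difference of 0.14, and none was called.

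Opioid genes and the Tet and Dnmt enzymes gave no call between the references, while Apobec1 of the DNA methylation and demethylation list was lower in p13 NSC. Ogfr, the opioid growth factor receptor, was at 82.4 CPM in p8 NSC and 84.4 CPM in p13 NSC, and Oprl1, the nociceptin receptor, had 10 and 12 counts. Tet1 was at 69.5 and 73.4 CPM, Tet2 at 38.8 and 47.7, and Tet3 at 191 and 190. Dnmt1 was at 523 and 507 CPM, Dnmt3a at 167 and 190, and Dnmt3b at 5.40 and 5.30. None of these receptors and Tet and Dnmt enzymes passed, at adjusted p of 0.27 or more in edgeR's quasi-likelihood test. Pou5f1, whose promoter drives the reporter of the strain, had 3 counts in p8 NSC and 0 in p13 NSC.

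Of 8 tested genes of motile cilia, 1 was called, Hydin, higher in p13 NSC. The differences of all 8 were above 0, with a median of 0.47 on the log2 scale. The summed TPM of that list was 35.5 in p8 NSC, 46.7 in p13 NSC and 45.2 to 50.04 in the drug experiment, a sum with no test.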
